A study of Mus musculus with 9 samples.

Results

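The genes described here encode 10 receptors through which the paraventricular nucleus of the hypothalamus (PVN) receives feeding and satiety signals: Mc4r, Mc3r, Npy1r, Npy2r, Npy5r, Glp1r, Ghsr, Oxtr, Htr2c and Cckbr. They were chosen by symbol, for what they are known to do and with no threshold on their values, although earlier results of these data were known when they were chosen. They are 10 of the 27179 genes in the count table. All 10 passed the filter on low counts, as did 17344 genes in all. Gene counts came from PVN tissue punches of 9 wild type male mice, C57BL/6 in the labels and C57BL/6J in the study's methods, with 3 mice per group. Control mice ate a control diet with 16% of calories from fat, which the labels call chow. HFD mice ate a high fat diet with 60% of calories from fat. HFD+Mino mice ate the same high fat diet and received minocycline, a tetracycline antibiotic that also dampens microglia, in their drinking water at 40 mg/kg/day over the last 6 of 12 weeks. The labels give postnatal day 35 as the age of all 9 mice, which by the study's methods is the age at which the diets began. No group of mice received minocycline on the control diet, so minocycline was compared under the high fat diet only.

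The PVN integrates signals from the arcuate nucleus, the hindbrain and the gut, and its neurons drive hormone release, sympathetic outflow and satiety. Melanocortin peptides made from Pomc act on Mc4r and Mc3r to reduce feeding, and Agrp blocks the same receptors. Neuropeptide Y acts on Npy1r and Npy5r to promote feeding, while Npy2r often sits on nerve terminals as a brake on transmitter release. Glucagon-like peptide 1 and serotonin signal satiety through Glp1r and Htr2c, and ghrelin signals hunger through Ghsr. Cholecystokinin acts on Cckbr, and also on Cckar, which is not among the 10, and oxytocin acts through Oxtr. All 10 proteins are G protein-coupled receptors, which pass their signal to adenylyl cyclase, phospholipase C or ion channels.

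In the GRCm38 build, Mc4r (chromosome 18, 66857705 to 66860487, minus strand) and Mc3r (chromosome 2, 172248492 to 172251114, plus strand) each consist of 1 exon. Npy5r (chromosome 8, 66679965 to 66688094, minus strand) and Npy1r (chromosome 8, 66697149 to 66706800, plus strand) are neighbours that point away from each other. Npy2r and Ghsr both lie on chromosome 3, at 82538383 to 82548989 on the minus strand and at 27371351 to 27379235 on the plus strand. Glp1r lies on chromosome 17 (30901867 to 30936510, plus strand), Oxtr on chromosome 6 (112473683 to 112491035, minus strand), Cckbr on chromosome 7 (105425676 to 105436339, plus strand) and Htr2c on chromosome X (146962464 to 147197277, plus strand). None of the 10 shares exon sequence with another gene annotated in GENCODE M21. The strand setting and the treatment of reads with several positions are not given, so mixing of their counts with those of other genes was not tested.

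Total counts per mouse ran from 17728590 to 42326213, and the 10 receptors together took 2982 to 6252 of them. Levels are given as CPM, the counts set against library size after scaling by the trimmed mean of M values. The punches differed in what they held. The summed level of 7 PVN markers was 39.1 CPM in Control replicate 1 and 947 to 37761 CPM in the other 8 mice, in which most of it was Avp and Oxt. Control replicate 1 was the lowest mouse for 5 of the 7. There the PVN transcription factor Otp was at 0, Avp was 0.149 CPM, Oxt was 0.77 CPM, Sim1 was 0.77 CPM and Trh was 5.49 CPM. The other two were not lowest there, Crh at 20.6 CPM (14.4 to 153 CPM in the other mice) and Pou3f2 at 11.4 CPM (7.16 to 72.1 CPM). In the same mouse 6 of 6 oligodendrocyte markers were higher than in any other mouse (summed 29217 CPM against 2221 to 6886 CPM). The punch of that mouse was thus low in 5 of 7 markers of its labelled tissue. Control replicate 2 held the most signal from the lateral hypothalamus (Pmch and Hcrt summed, 3372 CPM), and HFD+Mino replicates 1 and 2 had the highest sums of PVN markers (37761 and 31989 CPM, against 3111 CPM in replicate 3). Avp (28049 and 22180 CPM) and Oxt (8907 and 8696 CPM) made up nearly all of these sums. Otp was 0.616 and 0.371 CPM in these mice against 0.971 to 1.15 CPM in HFD mice, and Sim1 was 10.1 and 35.7 CPM against 10.8 to 21.6 CPM, so not all PVN markers were high there. Choroid plexus markers summed to 14.2 to 46.6 CPM in all mice. Of 73 marker genes tested in 14 lists, 2 passed a test described below, Rorb and Sox9. Both passed when the 3 groups were tested together, as did 2.13% of all genes.

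**Figure D1:**
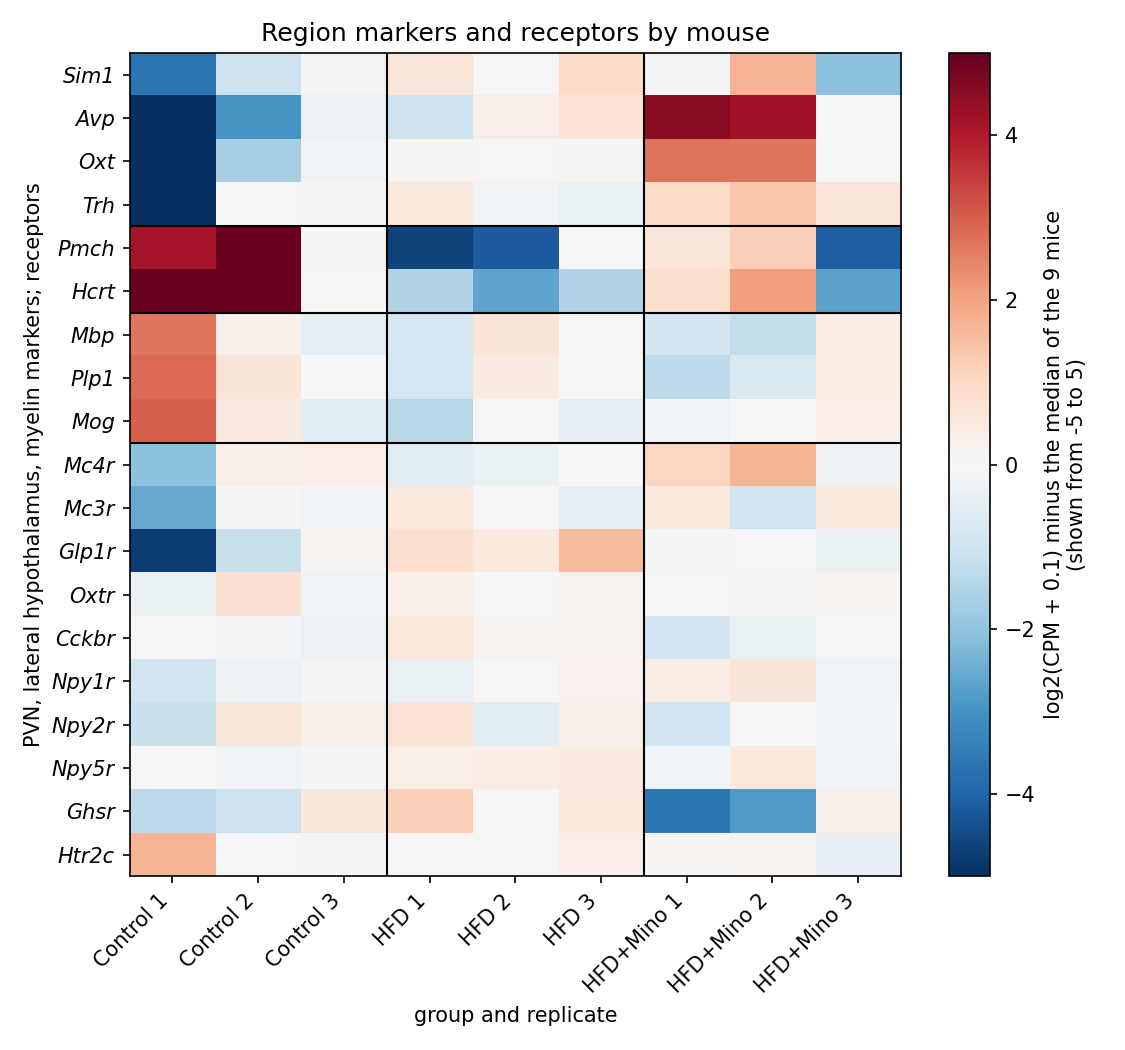
Levels of 4 PVN markers, 2 lateral hypothalamus markers, 3 myelin markers and the 10 receptors (rows) in each of the 9 mice (columns, by group and replicate), as log2(CPM + 0.1) minus the median of the 9 mice, with colours limited to -5 and 5. Control replicate 1 is lowest for the 4 PVN markers drawn, of 7 in the list (Crh and Pou3f2, not drawn, are not lowest there), and high for myelin, and 6 of the 10 receptors are lowest there, while Htr2c is highest there.

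Several receptors stood apart in the same mouse. In Control replicate 1 the level was the lowest of the 9 mice for 6 of the 10 receptors (Mc4r, Mc3r, Npy1r, Npy2r, Glp1r and Oxtr) and the highest for Htr2c. Among all genes tested it was the lowest in 11.8% and the highest in 12%. The part of the punch in the group comparisons was not tested, and each comparison with Control printed for these 7 receptors has the value without this mouse beside it. In bulk tissue, fewer cells of a type and less RNA per cell cannot be told apart.

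Receptors were compared between genes only per length, as CPM per kb of exon. By the median of the 9 mice, the order of levels was Npy1r (6.51 CPM per kb), Npy2r (6.50), Cckbr (4.90), Npy5r (3.55), Htr2c (3.41), Mc4r (3.25), Mc3r (2.66), Oxtr (1.17), Glp1r (0.665) and Ghsr (0.255). The ranges of every pair of neighbours in that order overlapped. Npy1r was above Npy2r in 4 of 9 mice, and Htr2c was above Mc4r in 4 of 9, so neither pair had an order. The steps at the low end were steadier, since Mc3r was above Oxtr, Oxtr above Glp1r, and Glp1r above Ghsr in 8 of 9 mice each. Of the related pairs Mc4r and Mc3r, Npy1r and Npy5r, and Npy1r and Npy2r, the melanocortin pair had the widest range of ratios. Per kb, Mc4r was 0.591 times Mc3r in HFD replicate 1 and 8.03 times Mc3r in HFD+Mino replicate 2. Npy1r was above Npy5r per kb in 8 of 9 mice, with a ratio from 0.908 in Control replicate 1 to 2.58 in HFD+Mino replicate 1.

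**Figure D2:**
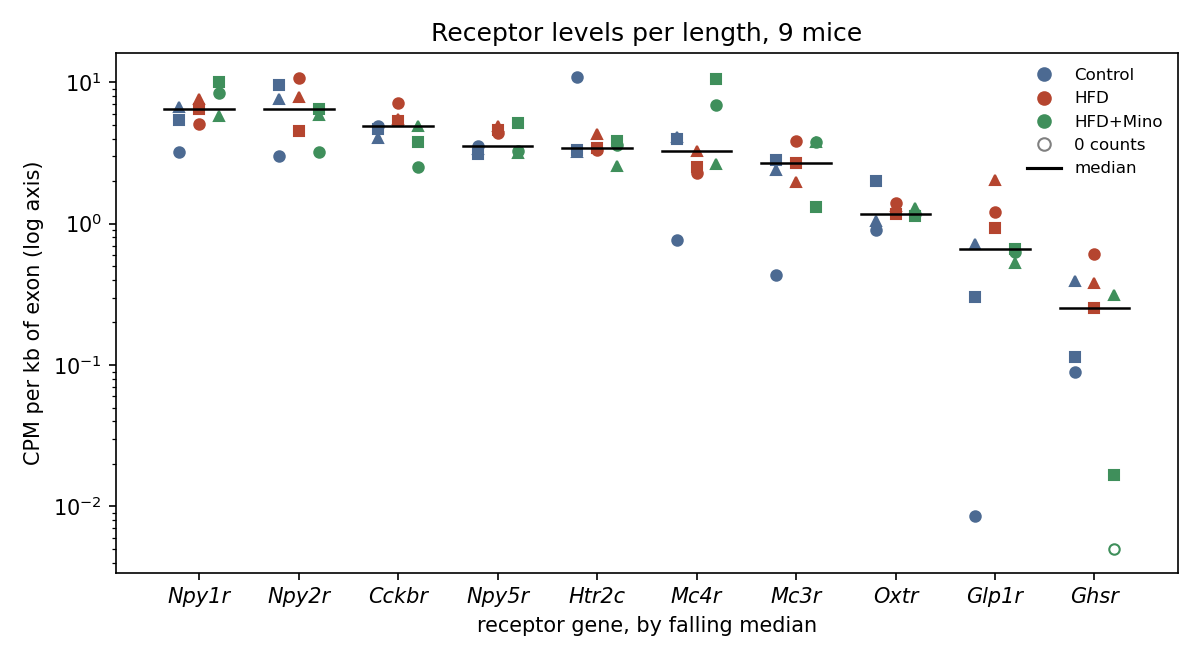
CPM per kb of exon on a log axis for each receptor, ordered by median (black line), with a point for each of the 9 mice coloured by group and shaped by replicate. The open point is a mouse with 0 counts, drawn below all other points, and neighbouring receptors overlap throughout.

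The first question was whether any receptor differed among the groups with HFD as the highest or lowest. Such a call does not by itself require that minocycline reversed the change. A quasi-likelihood model over the 9 mice (edgeR) tested the 3 groups together. A call needed a false discovery rate (FDR, adjusted by Benjamini-Hochberg over all 17344 genes) below 0.01, HFD as the highest or lowest group, and a distance of 1.5-fold or more between HFD and the average log2 level of all groups. No receptor was called, 0 of 10, against 2.13% of all genes, and 0 of 10 had an unadjusted p under 0.05, against 39%. With DESeq2 the count was also 0, although DESeq2 called 13.6% of all genes. The lowest FDRs were 0.167 for Mc4r, 0.199 for Glp1r and 0.204 for Cckbr. The 3 HFD mice lay beyond all 6 other mice for Glp1r and Cckbr, 2 of 10 receptors, as they did for 23% of all genes.

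The groups were then compared in pairs in the same model, with calls at an FDR below 0.01 and a 1.5-fold change. Comparisons that share a group share its mice and are not independent of each other. For HFD against Control, 0 of 10 receptors were called (1.74% of all genes), 1 had an unadjusted p under 0.05 (20.5%), and for 3 the groups did not overlap (35.7%). For HFD+Mino against HFD, 0 of 10 were called (4.15%), 2 had an unadjusted p under 0.05 (41.3%), and for 2 the groups did not overlap (46.7%). For HFD+Mino against Control, 0 of 10 were called (0%), 0 had an unadjusted p under 0.05 (21.3%), and for 0 the groups did not overlap (19.1%). DESeq2 also called 0 of the 10 in each pair, while it called 6.91%, 23% and 1.59% of all genes. The median log2 fold change of the receptors was 0.36, -0.21 and 0.03 in the 3 comparisons, against 0.00, 0.01 and -0.02 for all genes. Intervals were wide, so changes of several-fold in Glp1r, Ghsr, Mc4r or Mc3r could not have been told from the spread between mice.

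**Figure D3:**
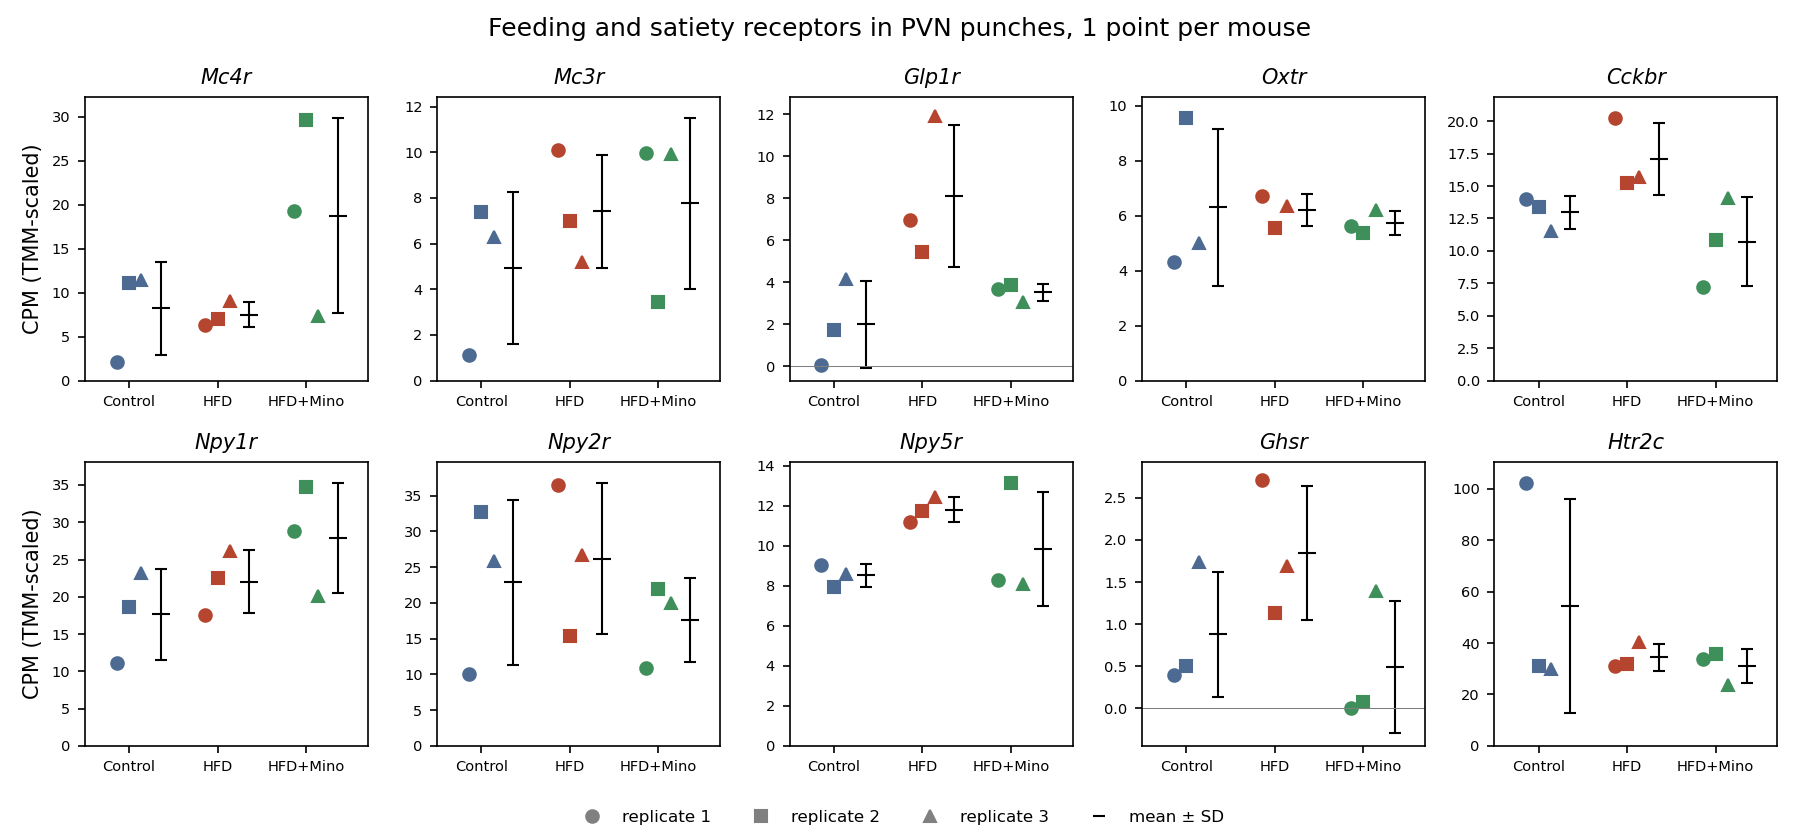
CPM of each receptor on linear axes, a point per mouse shaped by replicate, with the group mean and SD (n = 3) in black beside the points. Glp1r and Cckbr are highest in the 3 HFD mice, Mc4r is high in 2 of 3 HFD+Mino mice, and Control replicate 1 lies apart for Glp1r, Mc3r, Mc4r and Htr2c.

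Mc4r, the melanocortin receptor whose loss causes obesity, was 2.14, 11.1 and 11.5 CPM in Control replicates 1 to 3. It was 6.37, 7.02 and 9.11 CPM in the HFD mice and 19.3, 29.6 and 7.38 CPM in the HFD+Mino mice. The high values were those of HFD+Mino replicates 1 and 2, and replicate 3 lay within the range of the HFD mice. For HFD+Mino against HFD the log2 fold change was 1.32 (95% interval 0.01 to 2.63, edgeR FDR 0.118). The same 2 mice had the highest sums of PVN markers, carried by Avp and Oxt, and their arcuate markers summed to 121 and 179 CPM, against 57.1 CPM in replicate 3 and 25.9 to 32.7 CPM in the HFD mice. The part of these markers in the Mc4r level was not tested. For HFD against Control the log2 fold change was -0.13 (-1.42 to 1.16), and without Control replicate 1 it was -0.59.

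Without HFD+Mino replicate 3, the log2 fold change of Mc4r for HFD+Mino against HFD was 1.70 with an edgeR FDR of 0.0333, and Mc4r was not called. With Control replicate 1 left out as well, a choice made after seeing the data, it was 1.70 with an FDR of 0.000596, and Mc4r was called. In that setting 28% of all genes were called in this comparison and 15% in the 3-way test, where Mc4r and Ghsr were called too. The genes whose log2 CPM followed Mc4r most closely over the 9 mice were Tmem206 (Pearson r 0.976), Pdyn (0.966), which encodes prodynorphin, and Sox1ot (0.957). Pdyn was 2.24 CPM in Control replicate 1 and 60.8 and 72.9 CPM in HFD+Mino replicates 1 and 2, the same mice that were low and high for Mc4r.

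Mc3r, the second neural melanocortin receptor, was 1.14, 7.37 and 6.30 CPM in Control mice, 10.1, 6.99 and 5.20 CPM in HFD mice and 9.96, 3.45 and 9.92 CPM in HFD+Mino mice. All 3 groups overlapped, and 8 of the 9 mice lay between 3.45 and 10.1 CPM. Mc3r had a log2 fold change for HFD against Control of 0.59 (-0.75 to 1.92, edgeR FDR 0.620), and without Control replicate 1 it was 0.11. HFD+Mino replicate 2 was the highest mouse for Mc4r and the second lowest for Mc3r.

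Glp1r, the receptor for the satiety hormone glucagon-like peptide 1 and the target of drugs used against obesity, was 0.0497, 1.75 and 4.18 CPM in Control mice, which were 2, 62 and 142 counts. It was 6.98, 5.45 and 11.9 CPM in HFD mice and 3.66, 3.86 and 3.09 CPM in HFD+Mino mice. Every HFD mouse was above every other mouse, and the HFD+Mino mice lay within the Control range. For HFD against Control the log2 fold change was 2.03 (0.10 to 3.96), with an unadjusted p of 0.0412 and an FDR of 0.222 in edgeR. It was 1.45 (FDR 0.167) without Control replicate 1 and 3.18 (FDR 0.0759) without Control replicate 3, so its size rested on which Control mice were used. For HFD+Mino against HFD it was -1.20 (-3.08 to 0.68, FDR 0.315).

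Glp1r was most like Celf6 (Pearson r 0.982), St8sia2 (0.980) and Frmpd2 (0.975) in log2 CPM over the 9 mice. All 3 were at their lowest in Control replicate 1, where Frmpd2 was 0.174 CPM against 2.23 to 15.2 CPM elsewhere, and Spearman's rho was 0.967, 0.967 and 0.933. The 2 called marker genes were also higher in the 3 HFD mice than in every other mouse. Sox9, from the astrocyte list, was 100 to 107 CPM in HFD mice, with a log2 fold change of 1.46 for HFD against Control and -1.81 for HFD+Mino against HFD. Rorb, from the list for the suprachiasmatic nucleus, was 61.8 to 68.8 CPM in HFD mice, with 1.58 and -1.41. The rest of the lists did not all go with them. The median log2 fold change for HFD against Control was 0.31 over the 7 astrocyte markers, among them Slc1a3 at 0.70, Gja1 at 0.10 and Gfap at -0.63. It was -0.15 over the 5 suprachiasmatic markers, among them Vip at -1.22 and Nms at 0.85. The values of Gfap and Vip rested on Control replicate 1. Gfap was 508 CPM there and 152 and 139 CPM in the other Control mice, against 164 to 183 CPM in HFD mice. Vip was 7.13 CPM there and 2.65 and 0.324 CPM in the other Control mice, against 0.928 to 2.41 CPM in HFD mice. The summed astrocyte level, of which Slc1a3 was the largest part in HFD mice, was 2591 to 2806 CPM in HFD, 1956 to 2086 CPM in Control and 1505 to 1842 CPM in HFD+Mino mice. The summed suprachiasmatic level was 69.6 to 88.8, 35.8 to 43.9 and 33.4 to 36.8 CPM, and most of it in HFD mice was Rorb. Their part in the levels of Glp1r and Cckbr was not tested.

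Cckbr, a receptor for cholecystokinin, was 14.0, 13.4 and 11.6 CPM in Control mice, 20.3, 15.3 and 15.7 CPM in HFD mice and 7.22, 10.8 and 14.1 CPM in HFD+Mino mice. The HFD mice were the highest 3 of the 9, the lowest of them at 15.3 CPM and the next mouse at 14.1 CPM. The log2 fold change was 0.39 (-0.23 to 1.02, edgeR FDR 0.465) for HFD against Control and -0.67 (-1.30 to -0.04, FDR 0.10) for HFD+Mino against HFD. Control replicate 1 had the highest Cckbr value of its group.

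Npy1r, the postsynaptic receptor through which neuropeptide Y promotes feeding, was 11.1, 18.7 and 23.1 CPM in Control mice, 17.6, 22.5 and 26.1 CPM in HFD mice and 28.9, 34.8 and 20.1 CPM in HFD+Mino mice. HFD+Mino replicates 1 and 2 were again the highest 2 mice, as for Mc4r, and replicate 3 lay among the others. The log2 fold change for HFD+Mino against Control was 0.66 (-0.03 to 1.35, edgeR FDR 0.253), and 0.41 (FDR 0.460) without Control replicate 1. For HFD against Control it was 0.32 with that mouse and 0.08 without it. Npy5r, which lies beside Npy1r, was 9.07, 7.93 and 8.60 CPM in Control mice, 11.2, 11.7 and 12.4 CPM in HFD mice and 8.28, 13.2 and 8.09 CPM in HFD+Mino mice. Its Control and HFD groups did not overlap, at 8.53 ± 0.569 and 11.8 ± 0.628 CPM (SD, n = 3), which are coefficients of variation of 6.67% and 5.33%, below those of every other receptor in any group. Npy5r had a log2 fold change of 0.47 (-0.13 to 1.06, edgeR FDR 0.358), and leaving out any single mouse gave 0.42 to 0.51.

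Npy2r, the presynaptic member of the family, was 10.1, 32.6 and 25.9 CPM in Control mice, 36.5, 15.4 and 26.7 CPM in HFD mice and 10.9, 22.0 and 19.9 CPM in HFD+Mino mice. All 3 groups overlapped, with log2 fold changes of 0.19 (-0.79 to 1.17) for HFD against Control and -0.57 (-1.55 to 0.41) for HFD+Mino against HFD. Without Control replicate 1 the former was -0.17. HFD+Mino replicate 2 was the highest mouse for Npy1r and Npy5r, and HFD replicate 1 for Npy2r.

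Ghsr, the ghrelin receptor, was the scarcest of the 10. It had 16, 18 and 59 counts in Control mice, 54, 39 and 68 counts in HFD mice and 0, 2 and 51 counts in HFD+Mino mice. In CPM the HFD mice were at 2.71, 1.13 and 1.69, while HFD+Mino replicates 1 to 3 were at 0, 0.0743 and 1.39. A count of 0 in HFD+Mino replicate 1 allows up to 0.103 CPM (3 counts, counting error only), which is below every HFD mouse, but HFD+Mino replicate 3 lay within the HFD range. The log2 fold change for HFD+Mino against HFD was -1.87 (-4.45 to 0.72, edgeR FDR 0.254). Without HFD+Mino replicate 3, Ghsr was called (FDR 0.00617, with 21.4% of all genes called), the only call that leaving out a single mouse produced, with a fitted log2 fold change of -5.52 that depends on the prior count and is no bound. HFD+Mino replicates 1 and 2, which were lowest for Ghsr, were highest for Mc4r, Avp and Oxt, but not for every PVN marker.

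Oxtr, the oxytocin receptor, was 4.32, 9.57 and 5.00 CPM in Control mice, 6.73, 5.57 and 6.35 CPM in HFD mice and 5.61, 5.39 and 6.20 CPM in HFD+Mino mice. Only Control replicate 2 lay outside 4.32 to 6.73 CPM. The log2 fold change was -0.02 (-0.77 to 0.73) for HFD against Control and -0.11 (-0.87 to 0.64) for HFD+Mino against HFD, so a change of 1.5-fold lay inside both intervals. Without Control replicate 1, the former was -0.23, and HFD+Mino against Control was -0.35 instead of -0.13. Its ligand gene Oxt ranged from 0.77 CPM in Control replicate 1 to 8907 CPM in HFD+Mino replicate 1.

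Htr2c, the serotonin receptor that mediates appetite suppression by serotonin, was 102, 31.0 and 29.9 CPM in Control mice, 31.2, 31.8 and 40.5 CPM in HFD mice and 33.8, 35.8 and 23.7 CPM in HFD+Mino mice. Control replicate 1 stood at 102 CPM, and the other 8 mice lay between 23.7 and 40.5 CPM. The log2 fold changes of -0.66 (-1.59 to 0.28) for HFD against Control and -0.81 (-1.75 to 0.13) for HFD+Mino against Control turned to 0.18 and 0.03 without that mouse. Htr2c is known to be abundant in choroid plexus. In Control replicate 1 the 9 choroid plexus markers summed to 14.7 CPM, against 14.2 to 46.6 CPM in the other mice. Ttr was 1.84 CPM there, against 0.395 and 0.353 CPM in the other Control mice and up to 2.10 CPM elsewhere. Kcnj13 was 1.32 CPM, against 0.169 and 0.324 CPM in the other Control mice and up to 2.01 CPM elsewhere. Folr1, Clic6 and Cldn2 went the other way, at 1.49, 4.79 and 0.273 CPM, each below both other Control mice. Kl and Otx2 lay between the other Control mice. HFD replicate 1 held 2.06 CPM of Ttr and 2.01 CPM of Kcnj13, with Htr2c at 31.2 CPM. Other marker lists also differed in Control replicate 1. The 4 ependyma markers were all lowest there and summed to 14.8 CPM, against 116 to 618 CPM in the other mice. Lateral hypothalamus markers summed to 464 CPM there, against 3372 CPM in Control replicate 2 and 1.31 to 58.2 CPM elsewhere. Thalamus markers summed to 339 CPM there and 32.1 to 369 CPM elsewhere. The part of the choroid plexus markers or of these other markers in the Htr2c level was not tested.

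**Figure D4:**
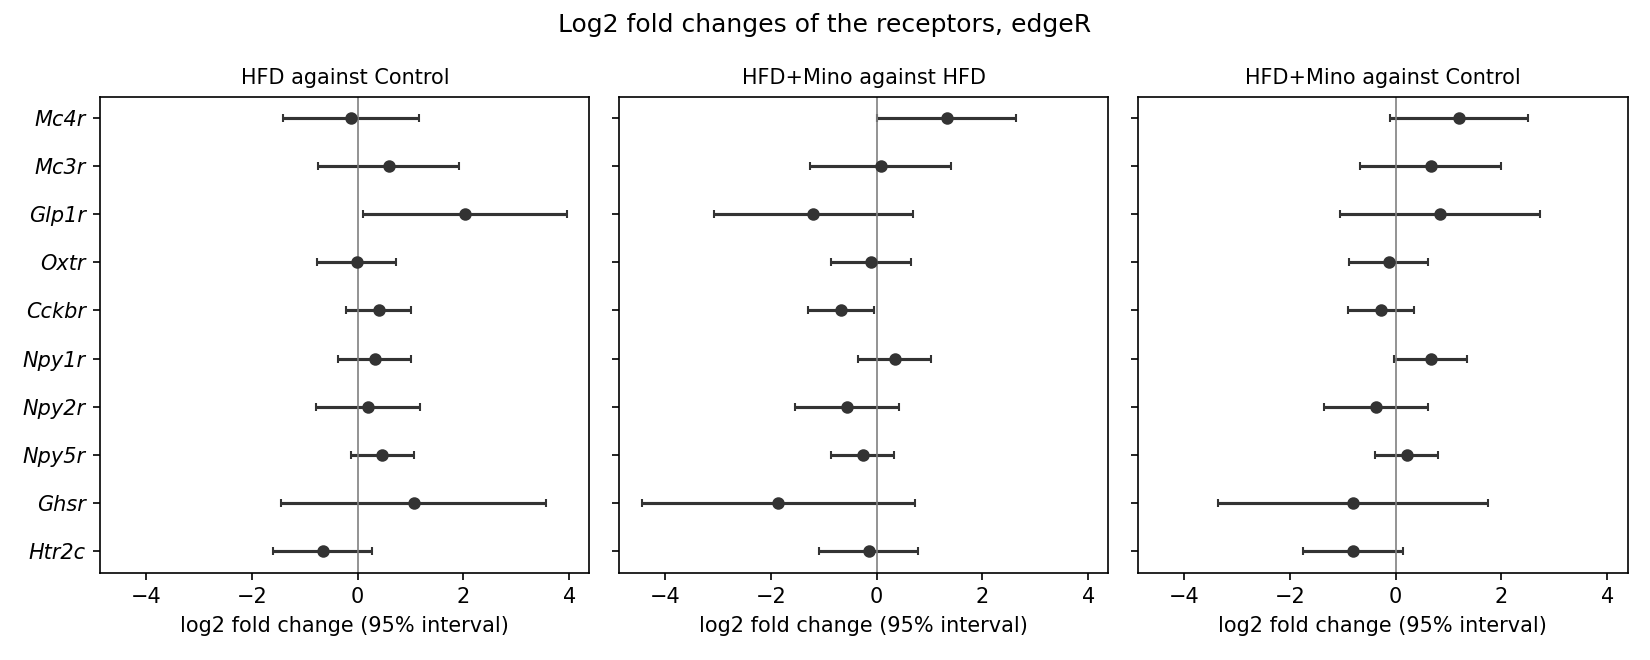
Log2 fold change of each receptor with its 95% interval (edgeR model over 9 mice) in the 3 comparisons, with the vertical line at no change. The intervals that leave out 0 are those of Glp1r for HFD against Control and of Mc4r and Cckbr for HFD+Mino against HFD, and none of these passed the threshold after adjustment.

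The genes of the receptors' ligands were compared next. Of 13 genes for ligands and their processing enzymes, 10 were tested and 0 were called in any comparison. An unadjusted edgeR p under 0.05 was found for 1, 3 and 5 of them for HFD against Control, HFD+Mino against HFD and HFD+Mino against Control. Over all genes these shares were 20.5%, 41.3% and 21.3%. Pyy, Gcg and Ghrl were not tested because of low counts. Npy was 28.9, 85.0 and 24.4 CPM in HFD+Mino mice, against 8.67 to 12.5 CPM in HFD and 5.48 to 18.2 CPM in Control mice, without overlap (log2 fold change 2.21 against HFD, edgeR FDR 0.0155). Pomc was 20.7, 12.3 and 6.34 CPM in HFD+Mino mice, against 3.39 to 5.10 CPM in HFD mice (1.66, FDR 0.0170). Agrp was 4.76, 2.30 and 0.382 CPM in HFD+Mino mice and 0.145 to 0.602 CPM in HFD mice (2.68, FDR 0.0399). Neurons that make these 3 peptides are known from the arcuate nucleus, and the arcuate marker sums given above include these 3 genes. None of the 3 passed the FDR of 0.01. Cck, the ligand gene of Cckbr, had no order by group, from 13.0 to 395 CPM in the HFD+Mino mice alone.

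Among 24 other receptors for the same ligands, such as the remaining melanocortin and serotonin receptors, 18 were tested and 0 were called in any comparison. Their unadjusted edgeR p was under 0.05 for 1, 6 and 4 of the 18 in the 3 comparisons in the order above. Over all genes it was so for 20.5%, 41.3% and 21.3%. Mrap2, an accessory protein that raises Mc4r signalling, was 52.9 to 109 CPM over the 9 mice and was not called. Of 27 tested G proteins, arrestins and accessory proteins, 2 were lower in HFD than in Control, and 1 was higher and 2 were lower in HFD+Mino than in HFD. Over all genes these shares were 1.42%, 1.98% and 2.16%. In HFD+Mino against Control 0 were called. An unadjusted p under 0.05 was found for 10, 15 and 7 of the 27 in the 3 comparisons, against 20.5%, 41.3% and 21.3% of all genes.

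Gnas, which encodes the stimulatory G protein subunit used by Mc4r, Mc3r and Glp1r, was 2458, 2291 and 2312 CPM in Control mice, 512, 645 and 620 CPM in HFD mice and 2634, 2095 and 2515 CPM in HFD+Mino mice. The HFD mice were far below all others. It fell by 1.99 on the log2 scale in HFD (edgeR FDR 0.0005) and was 2.03 higher in HFD+Mino than in HFD (FDR 0.000633). The latter call was lost without HFD replicate 3 (FDR 0.0107), where the log2 fold change was 2.07 and 0.162% of all genes were called. Gnas shares 988 nt of exon with the antisense gene Nespas and 1469 nt with Gm20721, and without a stated strand setting their reads cannot be told apart. Adcy2, an adenylyl cyclase, fell by 1.76 in HFD against Control (FDR 0.00307), from 103 to 124 CPM down to 25.6 to 40.1 CPM. That call was lost without Control replicate 2 or any HFD replicate (FDR 0.0190 to 0.0257). In those fits 0.335% to 0.509% of all genes were called in the same comparison. With each mouse left out in turn, the log2 fold change of Adcy2 was -1.90 to -1.59. Adcy2 shares 189 nt of exon with the antisense gene Gm35161.

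Gnaq, the G protein subunit used by Htr2c, Oxtr, Ghsr and Cckbr, was 165, 164 and 211 CPM in HFD mice and 80.1, 100 and 74.4 CPM in HFD+Mino mice. It was lower in HFD+Mino by a log2 fold change of -1.08 (edgeR FDR 0.00848). Plcb1, the phospholipase downstream of Gnaq, was 67.8 to 116 CPM in HFD mice and 22.9 to 37.5 CPM in HFD+Mino mice, with a log2 fold change of -1.50 (FDR 0.00951). Both calls were lost when a trend of fold change on exon length was removed, with log2 fold changes of -0.64 and -0.88 (FDR 0.0503 and 0.0466), and in a fit of the 6 HFD and HFD+Mino mice alone (FDR 0.0149 and 0.0132). Plcb1 was also lost with a GC trend removed (FDR 0.0121). Gnaq was also lost without Control replicate 2, any HFD replicate or HFD+Mino replicate 1 (FDR 0.0191 to 0.0535). Plcb1 was lost without each of the same mice in turn, and also without Control replicate 3 or HFD+Mino replicate 2 (FDR 0.0102 to 0.0538). In the fits that lost both genes, 0.162% to 0.828% of all genes were called in this comparison. Without Control replicate 3 or HFD+Mino replicate 2 it was 4.78% and 1.89%. Over single mice left out, the log2 fold change was -1.22 to -0.95 for Gnaq and -1.68 to -1.29 for Plcb1. Plcb1 shares 178 nt of exon with the antisense gene 9630028H03Rik. With the replicate number as a block for Control and HFD+Mino, which share numbers, Gnaq was called higher in HFD than in Control (FDR 0.00438). Adcy2 was then called higher in HFD+Mino than in HFD (FDR 0.0039). In that setting 6.22% and 25.6% of all genes were called in these comparisons. DESeq2 with no block made the same calls (FDR 0.000112 and 0.00141), with 6.91% and 23% of all genes called. The block over all 3 groups called Adcy2 (FDR 0.00886) and not Gnaq (0.0265).

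**Figure D5:**
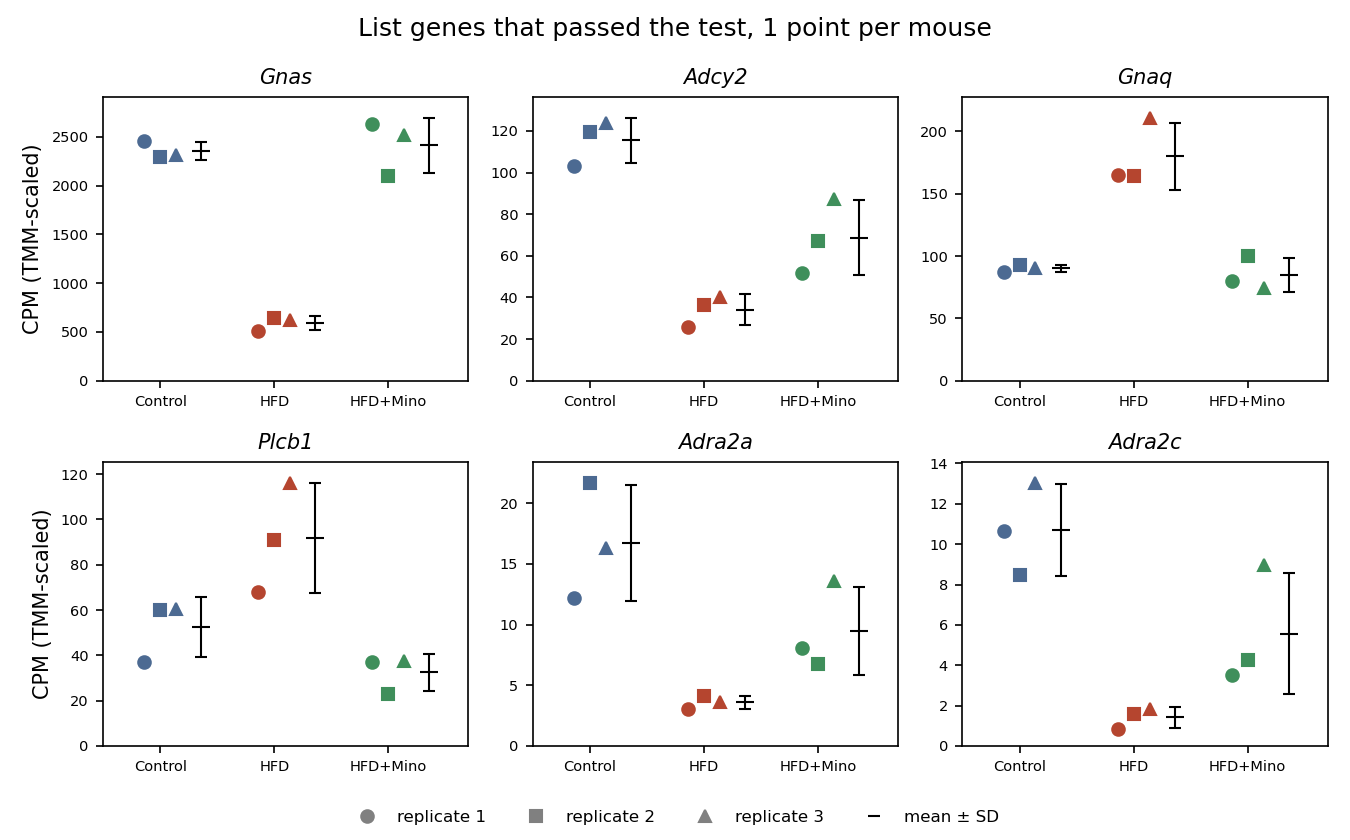
CPM of the 6 genes of the pathway lists that passed the test in a comparison, a point per mouse shaped by replicate, with the group mean and SD (n = 3) in black. In the 3 HFD mice Gnas, Adcy2, Adra2a and Adra2c are below every other mouse, and Gnaq and Plcb1 are above every other mouse.

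Of 40 tested feeding and hormone receptors other than the 10, 2 were called for HFD against Control, both lower. Over all genes 1.74% were called in this comparison, and 1.42% were called lower. These were the noradrenaline receptors Adra2a, at 12.2 to 21.7 CPM in Control and 3.06 to 4.12 CPM in HFD mice (log2 fold change -2.22, edgeR FDR 0.0047), and Adra2c, at 8.47 to 13.0 and 0.853 to 1.84 CPM (-2.89, FDR 0.00464). Both calls were lost without Control replicate 2 or 3 or any HFD replicate (FDR 0.0102 to 0.0385). With each mouse left out in turn, the log2 fold change was -2.40 to -1.97 for Adra2a and -3.13 to -2.65 for Adra2c. Of all genes, 0.335% to 0.408% were called in this comparison without an HFD mouse. Without Control replicate 2 or 3 the shares were 0.509% and 1.7%. With the replicate block for Control and HFD+Mino, Adra2a and Adra2c were called higher in HFD+Mino than in HFD (FDR 0.00627 and 0.00338). In that setting 25.6% of all genes were called in this comparison. DESeq2 with no block also called both (FDR 0.000917 and 0.000192), with 23% of all genes called. The block over all 3 groups called Adra2c (FDR 0.0087) and not Adra2a (0.0168), with 7.89% of all genes called. The sequences differ in composition, which was described by the 100 nt stretch of each coding sequence that holds the most G and C. That stretch was 87% G and C in Adra2a and 82% in Adra2c, and 54% (Htr2c) to 76% (Glp1r and Oxtr) in the 10 receptors. It was 84% in Adcy2 and 79% in Gnas, both called lower in HFD than in Control. For a gene with several transcripts, the one with the richest stretch was taken. In Gnas that stretch began at coding position 1478 of its transcript, and the other Gnas transcripts were not described. In Gnaq and Plcb1, both called lower in HFD+Mino than in HFD, it was 71% and 64%. Over 15356 tested genes the median was 67%, and over 200 genes called with HFD lowest in the 3-way test it was 79%, and over 153 called with HFD highest it was 69%. With a trend on GC content removed, Gnas, Adcy2, Adra2a and Adra2c were still called lower in HFD than in Control (edgeR FDR 0.000365 to 0.00383). Their log2 fold changes were -2.03, -1.79, -2.25 and -2.57, and 2.91% of all genes were called. For HFD+Mino against HFD in that setting, Gnaq stayed called (FDR 0.00529) and Plcb1 was lost, as given above. That trend used the GC content of a whole transcript. The part of the 100 nt stretch in these differences was not tested. For comparison, the stretches of the called receptors and of 2 uncalled ones are given, with G and C in capitals, from the GENCODE transcripts of GRCm38.
Adra2a, chr19:54047255-54047354, plus strand: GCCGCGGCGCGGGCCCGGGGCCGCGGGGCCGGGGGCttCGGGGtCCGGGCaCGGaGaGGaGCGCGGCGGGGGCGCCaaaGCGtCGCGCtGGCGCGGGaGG
Adra2c, chr5:35279888-35279987, plus strand: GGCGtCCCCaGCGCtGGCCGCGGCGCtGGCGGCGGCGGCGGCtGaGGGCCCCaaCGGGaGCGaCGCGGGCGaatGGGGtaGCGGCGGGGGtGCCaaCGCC
Mc3r, chr2:172249489-172249588, plus strand: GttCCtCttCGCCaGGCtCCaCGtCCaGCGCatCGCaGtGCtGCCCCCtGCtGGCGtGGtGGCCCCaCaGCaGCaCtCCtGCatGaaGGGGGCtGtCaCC
Npy5r, chr8:66681102-66681201, minus strand: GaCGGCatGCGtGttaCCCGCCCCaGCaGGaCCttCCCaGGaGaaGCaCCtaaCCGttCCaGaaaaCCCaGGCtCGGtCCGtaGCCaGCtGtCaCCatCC
The Mc3r stretch held 68% and the Npy5r stretch 62% G and C.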

How the data were processed

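Bulk RNA sequencing covered PVN punches of 9 mice (3 Control, 3 HFD and 3 HFD+Mino), and group and replicate were taken from the sample labels. Libraries were made with a kit for low RNA input that amplifies cDNA from total RNA. The authors deposited raw counts per gene, made by alignment to mm10 (GRCm38) with HISAT2 and assignment with featureCounts, with no normalization. Versions, the strand setting and the treatment of reads with several positions are not given in the sources used here. Reads without molecular identifiers are not independent molecules, and counting limits cover counting error only. The table also lists 958 genes without a symbol.

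The receptors and the other gene lists were chosen with earlier results of these data known, and the lists were written from general knowledge. Tests used edgeR 4.0.16 under R 4.3.3. The function filterByExpr kept 17344 genes, TMM set the library sizes, and the quasi-likelihood fit took all 9 mice with group as its factor (6 residual degrees of freedom). P-values were adjusted by Benjamini-Hochberg over all genes, and intervals are 95% intervals of the fitted log2 fold change. The text names all 10 receptors, each receptor's peptide ligand gene, the genes of the pathway lists that were called, and, for the receptors with the lowest 3-way p-values (Mc4r and Glp1r), the 3 genes with the highest Pearson correlation of log2 CPM (prior count 2). Likeness is a description over mice that share library, depth and punch effects. The marker lists were used only to describe the punches. Positions are from the RefSeq annotation of GRCm38.p6. Exon lengths, shared exons and sequences are from GENCODE M21, also GRCm38. The code was tested on simulated data.

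Alternatives were DESeq2 1.42.0, edgeR's likelihood ratio test, DESeq-type size factors, other filters and thresholds, removal of trends on exon length or GC content (lowess span 0.3), removal of Rn45s and mitochondrial genes, fits of 6 samples for each pair, the replicate number as a block, and each mouse left out in turn. By the replicate numbers of the sample titles, same-numbered Control and HFD+Mino mice deviated together (correlation of deviations 0.135, 0.163 and 0.292, each highest with its own number). HFD mice did not deviate with the mice of the same title number in either group (-0.152 to -0.00624). The count columns of the HFD mice carry other numbers than their titles, so pairing by column number was not examined for them. The block over all groups also used the title numbers. These correlations are low and rest on 3 mice per group, and a match of numbers beyond chance was not tested. No pairing is stated in the labels.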

Additional observations from a re-analysis of the deposited data

How the results depend on the processing

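The count of receptors called was 0 in every fit of all genes with a single choice changed, except that it was 1 for HFD+Mino against HFD without HFD+Mino replicate 3 (range 0 to 1 over single mice left out). With Control replicate 1 and HFD+Mino replicate 3 left out together, a setting chosen after the data were examined, it was 2 in the 3-way test and 2 for HFD+Mino against HFD (Mc4r and Ghsr). The percent of all genes called moved more, from 0.162% to 28% for HFD+Mino against HFD and from 0.335% to 6.91% for HFD against Control. Ghsr was not tested with a mean count of at least 50, and the 3-way test has no fit of 6 samples.

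Of 717 values of a receptor under an alternative, 680 kept direction and side of the threshold, 3 were newly called and 34 changed sign, with 0 of the 34 called (lowest FDR 0.292). With the replicate block, sign changes were Mc4r 0.031 and Oxtr 0.033 (all 3 groups) and Mc4r 0.017 and Oxtr 0.045 (Control and HFD+Mino alone) for HFD against Control. The block changed no call of a receptor. It changed calls of Gnaq, Adcy2, Adra2a and Adra2c, given above, and DESeq2 with no block made those calls too. With the exon length trend removed, Mc3r was -0.23, Oxtr 0.18 and Htr2c 0.42 for HFD+Mino against HFD, and Oxtr was 0.080 for HFD+Mino against Control. With that trend and the block together, Mc4r was 0.17 for HFD against Control, Mc3r -0.18, Oxtr 0.20 and Htr2c 0.44 for HFD+Mino against HFD, and Oxtr 0.18 for HFD+Mino against Control.

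With each mouse left out in turn, sign-changing ranges for HFD against Control were -0.59 to 0.19 for Mc4r, -0.17 to 0.55 for Npy2r, -0.95 to 0.18 for Htr2c and -0.23 to 0.42 for Oxtr. For HFD+Mino against HFD they were -0.14 to 0.43 for Mc3r and -0.26 to 0.012 for Htr2c. For HFD+Mino against Control they were -4.47 to 0.14 for Ghsr, -0.061 to 0.32 for Npy5r, -0.35 to 0.29 for Oxtr and -1.10 to 0.028 for Htr2c. With the 2 mice left out together, Npy2r was -0.17 and Htr2c 0.18 for HFD against Control, Mc3r -0.14 and Htr2c 0.011 for HFD+Mino against HFD, and Mc3r -0.029 and Htr2c 0.19 for HFD+Mino against Control. The cause of these changes was not tested. With 3 mice per group, and Ghsr at 0 to 68 counts, the intervals of Glp1r and Ghsr span several log2 units.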
